A study of Homo sapiens with 8 samples.

Results

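The genes described here encode the centromere and kinetochore proteins and the spindle assembly checkpoint of human cells. They were taken from a written list of 47 gene symbols, and all 47 were found among the 58233 genes of the count table. The list goes by the function of the genes. The libraries came from MCF10A-Hras cells, a breast epithelial line that carries an introduced H-Ras oncogene in every group. Control cells (labelled WT) and cells of RBM6-KO1, a single knockout clone for the RNA-binding protein RBM6 made with a Cas9 nickase, were sequenced untreated or 12 h after 5 Gy of X-rays (IR), with 2 biological replicates, A and B, in each of the 4 groups. The question asked of these genes is how their mRNA responds to IR, how it differs between RBM6-KO1 and control cells, and how the IR responses compare. With a single knockout clone, loss of RBM6 and other differences of that clone cannot be told apart.

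The centromere is the chromosomal site, marked by nucleosomes with the histone variant CENP-A, on which the kinetochore is built. An inner layer (the CENP proteins) binds centromeric chromatin, an outer layer (the KNL1, MIS12 and NDC80 complexes) binds spindle microtubules, and the checkpoint kinases and MAD and BUB proteins hold CDC20, the activator of the anaphase-promoting complex, until every kinetochore is attached. Many of these genes are transcribed mainly in G2 and mitosis, whereas others are transcribed through the cycle. From textbook knowledge, the 47 genes were divided into 21 mitotic genes (transcribed mainly in G2 and mitosis), 17 other cell cycle genes (rising from late G1 or S phase, or less strongly periodic) and 9 constitutive genes, CENPB, CENPC, CENPT, MIS12, NSL1, PMF1, BUB3, MAD1L1 and SKA2. The division was made with earlier results of these data known, so contrasts between the classes are a description.

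The libraries held 15355281 to 29832009 counts, and the 47 genes had between 36 counts (OIP5) and 4999 counts in a library, so that all 47 were tested in every comparison. RBM6 itself was at 66.9 and 68.8 normalized CPM (counts scaled to library size, with TMM factors) in untreated control cells and at 61.5 and 63.2 in untreated RBM6-KO1 cells, and at 54.5 and 48.9 against 44 and 33.9 after IR. The knockout libraries were thus lower without overlap, but the difference did not pass the test in either condition (log2 fold change -0.14 ± 0.15 (SE), adjusted p = 0.712 untreated; -0.40 ± 0.20, adjusted p = 0.535 after IR; edgeR quasi-likelihood test). A count over a whole gene does not read a small edit in the coding sequence. Of the 6 breast epithelial markers looked at, KRT5 stood at 1057 to 1623 CPM in all libraries, and EPCAM was lower in RBM6-KO1 cells (log2 fold change -1.79 ± 0.22 (SE), adjusted p = 4.43e-05, untreated; -1.82 ± 0.22, adjusted p = 0.0151, after IR). KRT14 was higher in untreated RBM6-KO1 cells at an adjusted p alone (0.78 ± 0.19, adjusted p = 0.0156), with 0.75 and an adjusted p of 0.116 after IR. The other markers, KRT17, TP63 and CDH1, did not pass the test between genotypes, with CDH1 at -0.47 untreated and -0.89 after IR. Of 6 blood and endothelial markers, 5 had at most 4 counts in any library and PECAM1 was at 1.13 to 6.33 CPM. Replicates of a group differed in the genes described here. The median B-to-A difference (log2) was -0.15 in untreated control cells, where 10 of the 47 genes were higher in B, 0.00 in irradiated control cells, 0.08 in untreated RBM6-KO1 cells and -0.08 in irradiated RBM6-KO1 cells. The largest difference of a single gene was that of CENPE in irradiated RBM6-KO1 cells, at -1.25. In the other groups it was -0.78 (CENPQ, untreated control cells), -0.70 (SPC24, irradiated control cells) and 0.71 (CENPE, untreated RBM6-KO1 cells).

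Of the promoter words searched, the CHR defined below differed most between the classes. The promoters of 39 of the 47 genes were in the RefSeq table (GRCh38.p14, 250 bases before to 50 after the start), and those of CENPH, CENPL, CENPM, KNL1, BUB3, TTK, KNTC1 and BIRC5 were not. They were searched on both strands for the cell cycle genes homology region or CHR (spelled TTTGAA here, with the variant TTCGAA and the variant CTTGAA also counted), the element bound by the MuvB-containing complexes that repress and later activate G2 and mitotic genes, and for CCAAT, the NF-Y box. A CHR word was present in 15 of 18 mitotic promoters (83.3%), 6 of 13 other cell cycle promoters (46.2%) and 1 of 8 constitutive promoters (12.5%, CENPC), against 24.9% of all 35116 promoters. CCAAT was found in 66.7%, 69.2% and 50% of the classes and in 34.6% of all promoters. Both words occurred in 55.6%, 38.5% and 12.5% of the classes and in 9.65% of all promoters. An E2F word (TTTCCCGC, TTTGGCGC, TTTGCCGC or TTTCGCGC) was rarer, in 2 of 18 (11.1%), 1 of 13 (7.69%) and 1 of 8 (12.5%) promoters of the classes, against 3.31% of all promoters. These counts are too small to set the classes apart. For the genes described here the first listed start was searched, whereas the share over all promoters counts every full-length promoter listed. A match is a string of letters and not a measured binding site.

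The stretches upstream of the RefSeq start that carry these words are shown for CDC20, which fell in both genotypes, for CENPA and CDCA8, which carry both words, for BUB1B, which has a CHR word without CCAAT, and for the constitutive gene SKA2, which has CCAAT without a CHR word. Capitals mark CHR and CCAAT words (ATTGG is CCAAT on the other strand, and in CDCA8 the CHR word and the last CCAAT word share 1 base), each stretch is read 5′ to 3′ on the gene's strand, and the coordinates are of GRCh38.p14.
CDC20 (plus strand, chr1:43358831-43358980): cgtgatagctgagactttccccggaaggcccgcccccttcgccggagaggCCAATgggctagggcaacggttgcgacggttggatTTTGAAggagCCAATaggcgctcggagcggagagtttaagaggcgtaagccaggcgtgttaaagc
CENPA (plus strand, chr2:26785906-26786055): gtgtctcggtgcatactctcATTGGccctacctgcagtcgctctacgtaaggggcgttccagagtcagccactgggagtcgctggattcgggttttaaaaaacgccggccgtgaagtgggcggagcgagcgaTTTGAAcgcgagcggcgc
CDCA8 (plus strand, chr1:37692366-37692510): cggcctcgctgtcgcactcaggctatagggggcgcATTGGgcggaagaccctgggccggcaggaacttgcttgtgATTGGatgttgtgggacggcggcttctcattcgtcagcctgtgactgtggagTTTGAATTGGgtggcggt
BUB1B (plus strand, chr15:40160919-40161052): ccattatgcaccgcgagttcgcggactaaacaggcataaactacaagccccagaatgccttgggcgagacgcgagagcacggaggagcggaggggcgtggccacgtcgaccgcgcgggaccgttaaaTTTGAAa
SKA2 (minus strand, chr17:59155231-59155336): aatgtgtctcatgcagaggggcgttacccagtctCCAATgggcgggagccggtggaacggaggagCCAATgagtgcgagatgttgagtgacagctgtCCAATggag

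The levels of the 47 genes spanned a wide range in untreated control cells. Per length (normalized CPM per kilobase of the canonical transcript, here RPKM), CDC20 was highest with 143.3 and 132 RPKM in the 2 libraries. CENPB, which binds a short DNA motif in alpha satellite repeats, followed with 75.7 and 76.58, then the kinase AURKB with 61.58 and 60.33 and BIRC5 with 40.83 and 41.62. These 4 genes did not overlap between libraries. CENPW followed at a mean of 32.23 and CENPH at 24.46 RPKM, and NUF2 (19.88 and 14.58) could not be separated from PMF1 (19.43 and 18.13) or BUB3 (18.39 and 17.07). At the lower end were KNL1 at a mean of 1.41, CENPI at 1.24 and CENPP at 0.40 RPKM, of which the ranges of KNL1 and CENPI overlapped.

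After IR, mRNA of several mitotic genes fell in control cells. At an adjusted p under 0.05 and at least a 2-fold change (the rule for a call throughout), 5 of the 47 genes fell, where 1.91% of the 15412 genes tested did, and 0 rose, where 1.68% of all genes did. The 5 were CDC20, CENPF, BIRC5, CENPE and SGO2, all in the mitotic class. With an adjusted p alone 6 fell, AURKB being the sixth, against 2.91% of all genes. No gene rose at an unadjusted p under 0.05, and DESeq2 also called 0 higher and 5 lower. The 2 irradiated libraries lay below both untreated libraries for 21 of the 47 genes and above them for 6, against 27.7% of all genes tested that lay below and 29.4% that lay above. The median log2 fold change of the 47 genes was -0.22 against 0.02 for all genes, with 36 genes below 0. It was -0.08 without replicate A and -0.41 without replicate B of the untreated control cells, so that its size depends on those 2 libraries. In total RNA from a whole culture, fewer cells in G2 and mitosis and less of a transcript per cell cannot be told apart.

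In RBM6-KO1 cells more of the genes fell. The rule called 9 of the 47 lower (background 1.97% of 15598 genes) and 0 higher (background 1.13%). They were the 5 genes called in control cells and AURKB, NDC80, NUF2 and CENPA. With an adjusted p alone 13 fell, against 3.23% of all genes, and the 4 added genes were HJURP, KNL1, CENPT and PMF1. DESeq2 called 8 lower and 0 higher, and 1 gene, NSL1, was higher at an unadjusted p under 0.05 (adjusted p = 0.0816). The irradiated libraries lay below the untreated ones for 36 of the 47 genes and above for 5, against 29.5% of all genes that lay below and 32.6% above. The median log2 fold change was -0.53 against -0.01 for all genes, with 40 genes below 0. The 2 IR comparisons share no library, and 20 of the 47 genes were lower without overlap in both, against 18.9% of the 14866 genes tested in both. In the map of values by library they make up most of the blue cells.

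**Figure D1:**
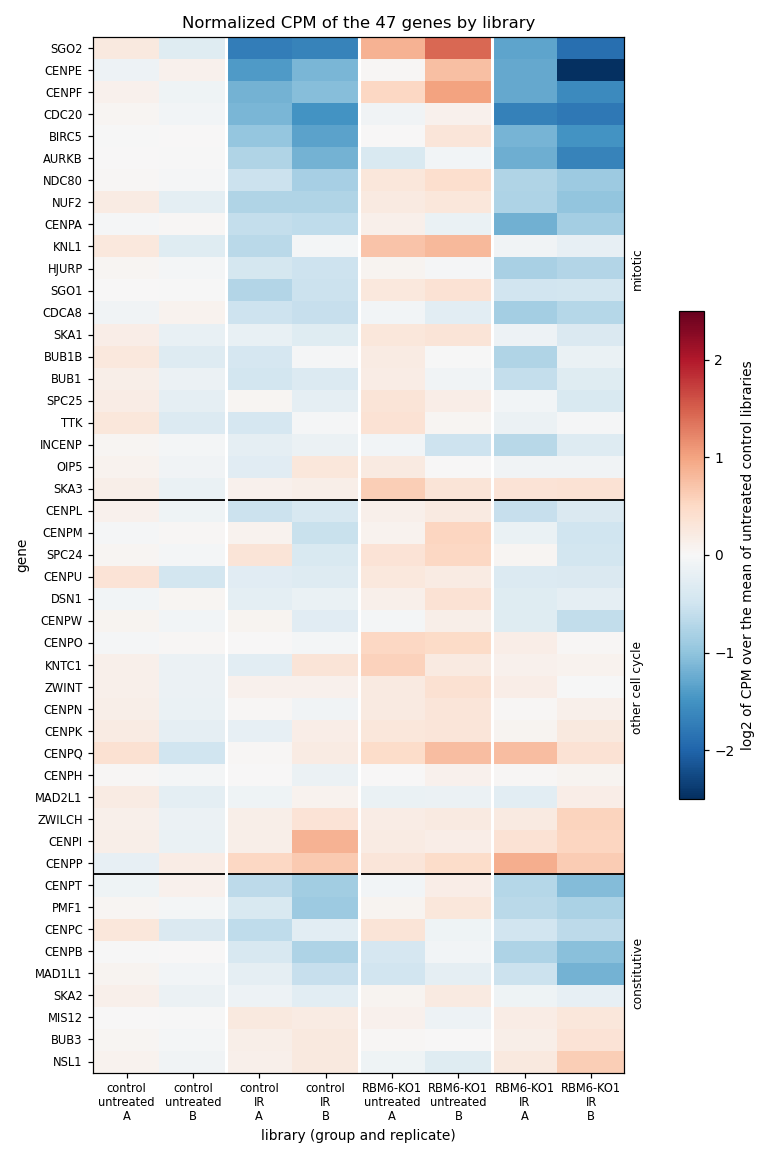
Normalized CPM of the 47 genes (rows, by class and then by IR response in RBM6-KO1 cells) in the 8 libraries (columns), as log2 of the value over the mean of both untreated control libraries. Mitotic genes at the top are blue (lower) in the irradiated libraries of both genotypes, and SGO2, CENPF and CENPE are red (higher) in replicate B of untreated RBM6-KO1 cells.

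CDC20 (chr1:43358981-43363203, plus strand, as are all coordinates below from GENCODE v44 on GRCh38) activates the anaphase-promoting complex and is the target of the checkpoint. It stood at 236.3 and 217.6 normalized CPM in untreated control cells and at 102.5 and 80.7 after IR. In RBM6-KO1 cells it went from 213.5 and 243.2 to 70.59 and 66.08. Every irradiated library lay far below every untreated one, and the genotypes overlapped without IR. The fall was 2.5-fold in control cells (log2 fold change -1.32 ± 0.17 (SE), adjusted p = 0.00365) and 3.38-fold in RBM6-KO1 cells (-1.76 ± 0.15, adjusted p = 0.00154).

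Of the motor and corona proteins, which coat the unattached kinetochore, CENPF (chr1:214603185-214664574, plus strand) was at 99.51 and 86.31 CPM in untreated control cells and 41.11 and 44.49 after IR. In RBM6-KO1 cells it was at 133.5 and 185.7 untreated and 38.44 and 30.76 after IR. The knockout libraries were higher untreated (log2 0.77 ± 0.16 (SE), adjusted p = 0.0067) and lower after IR, without overlap in either condition. The difference after IR did not pass the test (-0.30 ± 0.19, adjusted p = 0.683), and 20.2% of all genes lay lower without overlap there. CENPF fell 2.18-fold after IR in control cells (log2 -1.13 ± 0.17 (SE), adjusted p = 0.00571) and 4.66-fold in RBM6-KO1 cells (-2.22 ± 0.20, adjusted p = 0.00192). CENPE (chr4:103105349-103198445, minus strand), the kinesin that moves chromosomes to the spindle equator, was at 17.68 and 20.76 CPM in untreated and 7.19 and 8.76 CPM in irradiated control cells. In RBM6-KO1 cells it was at 19.59 and 32.31 untreated and at 7.89 and 3.04 after IR. Replicates A and B of the knockout differed in both conditions, but the irradiated libraries stayed below. CENPE fell 2.41-fold in control cells (log2 -1.27 ± 0.24 (SE), adjusted p = 0.0143) and 4.8-fold in RBM6-KO1 cells (-2.26 ± 0.39, adjusted p = 0.0195). The call in control cells was lost without replicate B of the untreated control cells (adjusted p = 0.0698) and with all 8 libraries in 1 fit (adjusted p = 0.0767). In RBM6-KO1 cells the size of the fall depended on the irradiated libraries, at -3.09 without replicate A and -1.71 without replicate B, and was called in both cases. The remaining corona genes, ZWILCH and KNTC1, which encode subunits of the dynein adaptor complex RZZ, had log2 fold changes of 0.25 and 0.06 in control cells and 0.18 and -0.34 in RBM6-KO1 cells, none past the test.

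The shugoshins protect centromeric cohesin. SGO2 (chr2:200510008-200584096, plus strand) was at 16.27 and 11.1 CPM in untreated control cells and 4.14 and 4.28 after IR, and in RBM6-KO1 cells it went from 25.05 and 36.94 to 5.47 and 3.72. The irradiated libraries of both genotypes overlapped, while the untreated knockout libraries were the highest of all. The fall was 3.26-fold in control cells (log2 -1.70 ± 0.27 (SE), adjusted p = 0.0078) and 6.81-fold in RBM6-KO1 cells (-2.77 ± 0.27, adjusted p = 0.0022), which was the most negative log2 fold change among the 47 genes in both. SGO1 went from 9.52 and 9.28 to 5.63 and 6.50 CPM in control cells and from 11.26 and 12.04 to 6.76 and 6.86 in RBM6-KO1 cells. These groups did not overlap, but neither difference passed the test (adjusted p = 0.142 and 0.0531).

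The chromosomal passenger complex, in which AURKB is the kinase and INCENP, BIRC5 (survivin) and CDCA8 (borealin) place it at the centromere, had its called genes among the kinase and survivin. BIRC5 (chr17:78214186-78225636, plus strand) went from 105.1 and 107.1 CPM to 54.65 and 42.11 in control cells and from 107.2 and 131.4 to 47.21 and 37.91 in RBM6-KO1 cells. Every irradiated library lay below every untreated one, with log2 fold changes of -1.15 ± 0.18 (SE, adjusted p = 0.00691) and -1.50 ± 0.18 (adjusted p = 0.00549). Without replicate B of the irradiated control cells its fall there was -0.97, just short of 2-fold. AURKB (chr17:8204733-8210600, minus strand) went from 76.55 and 74.99 to 44.93 and 33.29 CPM in control cells and from 57.87 and 72.72 to 32.66 and 23.76 in RBM6-KO1 cells. Both falls passed the adjusted p (log2 -0.97 ± 0.19, adjusted p = 0.0172; -1.23 ± 0.20, adjusted p = 0.0168), and only that in RBM6-KO1 cells reached 2-fold. The latter came to the 2-fold line without replicate B of the irradiated RBM6-KO1 cells and was then no longer called. CDCA8 went from 28.73 and 32.4 to 21.43 and 20.63 CPM in control cells and from 29.27 and 25.51 to 17.03 and 18.66 in RBM6-KO1 cells, lower in every irradiated library but not past the test (adjusted p = 0.123 and 0.0661). INCENP went from 46.16 and 42.8 to 38.26 and 40.08 CPM and from 42.28 and 31.23 to 27.61 and 35.36 (adjusted p = 0.526 and 0.454).

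**Figure D2:**
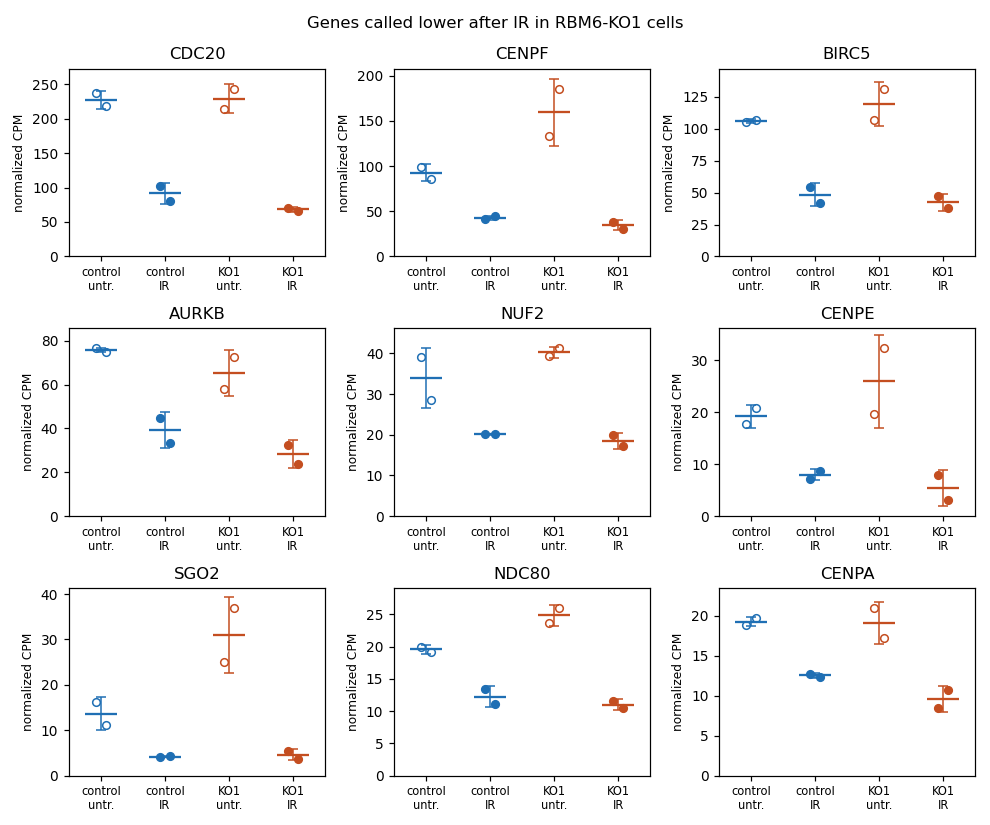
Normalized CPM (linear axes from 0) of the 9 genes called lower after IR in RBM6-KO1 cells, in control (blue) and RBM6-KO1 (orange) cells, untreated (open) or after IR (filled). Points are libraries, horizontal lines group means and bars the SD of the 2 libraries. In each panel the irradiated libraries lie below the untreated libraries of the same genotype.

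The outer kinetochore divided by gene. NDC80 (chr18:2571557-2616635, plus strand), which with NUF2 makes the microtubule-binding end of the NDC80 complex, went from 20.01 and 19.1 to 13.4 and 11.07 CPM in control cells and from 23.64 and 25.99 to 11.61 and 10.43 in RBM6-KO1 cells. NUF2 (chr1:163266576-163355764, plus strand) went from 39.04 and 28.64 to 20.14 and 20.06 CPM and from 39.29 and 41.23 to 19.87 and 17.14. Both genes were lower in every irradiated library. They were called in RBM6-KO1 cells (log2 -1.19 ± 0.19 (SE), adjusted p = 0.0157, and -1.14 ± 0.17, adjusted p = 0.0149) and missed in control cells (-0.69, adjusted p = 0.0872, and -0.76, adjusted p = 0.061). The other two subunits, SPC24 and SPC25, which anchor the complex, had values of 0.00 and -0.10 in control cells and of -0.64 and -0.48 in RBM6-KO1 cells, none past the test. KNL1, the scaffold that recruits BUB1, went from 15.53 and 10.51 to 8.16 and 12.52 CPM in control cells, where the groups overlapped, and from 21.39 and 22.86 to 12.18 and 11.31 in RBM6-KO1 cells, where it fell by 0.93 on the log2 scale (adjusted p = 0.0295). Of the MIS12 complex, which links the layers, MIS12 itself was at 17.99 and 17.7 CPM untreated and 21.24 and 20.54 after IR in control cells, and at 19.31 and 16.4 and then 20.23 and 21.7 in RBM6-KO1 cells. It was slightly above the untreated libraries in all 4 irradiated ones (log2 0.22 and 0.21, adjusted p = 0.538 and 0.465). In the same complex PMF1 fell in RBM6-KO1 cells by 0.92 on the log2 scale (adjusted p = 0.0311), while NSL1 went from 18.75 and 16.46 to 23.94 and 31.05 CPM there (0.63 ± 0.20, adjusted p = 0.0816) and from 21.48 and 19.04 to 22.14 and 23.92 in control cells. The exons of PMF1 overlap those of the read-through gene PMF1-BGLAP by 587 bases, so its count may hold reads of that gene.

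CENP-A and its loading factors came next. CENPA (chr2:26764289-26801067, plus strand) went from 18.85 and 19.69 to 12.75 and 12.36 CPM in control cells and from 21 and 17.28 to 8.41 and 10.73 in RBM6-KO1 cells. Its fall was called in RBM6-KO1 cells (log2 -1.02 ± 0.21 (SE), adjusted p = 0.0333) and not in control cells (-0.63 ± 0.22, adjusted p = 0.103). This call sat at the 2-fold line, and it was lost with DESeq2 and with no filter on low counts (both -0.98) and without replicate A of the untreated (-0.85) or the irradiated (-0.84) RBM6-KO1 cells. HJURP, the chaperone that deposits CENP-A, went from 46.84 and 44.31 to 33.8 and 31.87 CPM and from 47.79 and 44.63 to 26.06 and 27.33, and passed the adjusted p in RBM6-KO1 cells (-0.81 ± 0.16, adjusted p = 0.0297). OIP5, which licenses loading, had log2 fold changes of 0.04 and -0.22, and its overlaps with exons of OIP5-AS1 and NUSAP1 on the opposite strand add up to 1111 bases, its exons holding 1201. The sources used here do not say whether counting used strand, and the exons of 17 of the 47 genes overlap those of some other gene.

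The inner kinetochore (14 genes) had 0 called genes after IR in both genotypes, where 1.91% and 1.97% of all genes were called lower. Its medians were -0.09 in control and -0.47 in RBM6-KO1 cells. In RBM6-KO1 cells its 3 constitutive genes had the lowest log2 fold changes, but CENPC (-0.70) and CENPB (-0.68) were not separated from CENPL and CENPM (both -0.66). With a GC and length trend removed, CENPB was at -0.36 and CENPL at -0.74. CENPT, which connects centromeric DNA to NDC80, was lower in every irradiated library and fell in RBM6-KO1 cells (log2 -0.96 ± 0.20 (SE), adjusted p = 0.0307), with -0.77 ± 0.21 and an adjusted p of 0.0541 in control cells. CENPB went from 218.8 and 221.3 to 165.7 and 129 CPM in control cells and from 163.6 and 209.1 to 129.5 and 106.1 in RBM6-KO1 cells, with adjusted p = 0.0616 and 0.0522. CENPC, the blueprint of the inner layer, went from 13.2 and 8.47 to 6.99 and 9.08 CPM, overlapping, and from 13.62 and 10.0 to 7.79 and 6.91, without overlap (adjusted p = 0.353 and 0.0868). Of the other genes of this layer, CENPI and CENPP lay above the untreated libraries after IR in both genotypes (CENPI 0.56 and 0.25, CENPP 0.57 and 0.37 on the log2 scale), and neither passed the test. CENPP shares 3720 exonic bases with IPPK on the opposite strand.

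Of the 7 checkpoint genes only CDC20 was called. Over all genes, 1.91% in control and 1.97% in RBM6-KO1 cells were called lower after IR. BUB1, the kinase that marks centromeric histone H2A, went from 60.1 and 49.03 to 39.62 and 43.07 CPM in control cells and from 61.7 and 51.02 to 36.22 and 43.94 in RBM6-KO1 cells, with adjusted p = 0.192 and 0.0983. BUB1B (BubR1) went from 33.03 and 21.88 to 20.52 and 26.82 CPM and from 31.58 and 27.21 to 16.41 and 24.59 (adjusted p = 0.606 and 0.141). TTK (MPS1), the kinase that starts checkpoint signalling, went from 31.55 and 20.65 to 19.55 and 25.59 CPM and from 33.55 and 26.87 to 23.48 and 25.47 (adjusted p = 0.62 and 0.269). Of these kinases, BUB1 was lower without overlap in both genotypes, as were 18.9% of the 14866 genes tested in both. MAD2L1, which inhibits CDC20, was at 69.8 and 51.44 CPM and then 56.33 and 64.42 in control cells, and at 54.16 and 54.9 and then 50.41 and 68.23 in RBM6-KO1 cells, overlapping throughout. MAD1L1, its receptor at the kinetochore, went from 34.68 and 31.22 to 28.23 and 22.24 CPM and from 23.7 and 28.16 to 22.6 and 14.6, and BUB3 from 141.7 and 131.5 to 151.1 and 160.9 and from 139.2 and 137.1 to 150.8 and 174.1. The MAD1L1 libraries were lower after IR and the BUB3 libraries higher, without overlap in either genotype and past the test in none (adjusted p from 0.187 to 0.478). Over all genes, 29.4% in control and 32.6% in RBM6-KO1 cells lay higher without overlap. The SKA complex, which couples kinetochores to shrinking microtubules, also had 0 called genes. A count of 0 among its 3 genes is near the share of all genes called. SKA1 went from 23.14 and 18.34 to 18.19 and 16.8 CPM in control cells and from 25.16 and 25.92 to 18.99 and 16.11 in RBM6-KO1 cells, with adjusted p = 0.492 and 0.0879.

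The classes can be set side by side. In control cells IR lowered 5 of 21 mitotic genes by the rule, 0 of 17 other cell cycle genes and 0 of 9 constitutive genes, with median log2 fold changes of -0.55, -0.01 and -0.40. In RBM6-KO1 cells the counts were 9, 0 and 0 and the medians -0.81, -0.24 and -0.49. Of all genes tested, 1.91% were called lower in control cells and 1.97% in RBM6-KO1 cells, so that 0 of 17 and 0 of 9 are near that share. At an unadjusted p under 0.05, 13 mitotic, 0 other cell cycle and 3 constitutive genes were lower in control cells (1909 of all 15412). In RBM6-KO1 cells 17, 6 and 4 were (2303 of all 15598). All 21 mitotic genes were below 0 in RBM6-KO1 cells, from -2.77 (SGO2) to -0.14 (SKA3), and 19 of them were lower without overlap, against 29.5% of all genes. The constitutive genes were divided, since in both genotypes CENPT, PMF1, CENPC, CENPB, MAD1L1 and SKA2 were below 0 and MIS12, BUB3 and NSL1 above. Fold changes after IR rose with transcript length over all genes (rank correlations of 0.36 in control and 0.32 in RBM6-KO1 cells, as a description). They fell with GC content (-0.275 in control and -0.246 in RBM6-KO1 cells). With a GC and length trend removed 8 of the 9 constitutive genes were below 0 in control cells (median -0.26) and 6 of 9 in RBM6-KO1 cells (median -0.36). This division of the constitutive genes thus depended on the trend in control cells. Among the mitotic genes the CHR word did not separate those called from the others, being present in 5 of the 8 called genes with a promoter (absent from CENPE, SGO2 and AURKB) and in 10 of the 10 not called.

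Summed over the class, the mitotic genes made up 959.9 and 863.2 CPM in untreated control libraries and 539.6 and 514.2 after IR, and 989.8 and 1092 CPM and then 463.4 and 447.7 in RBM6-KO1 cells. The constitutive genes, of which CENPB and BUB3 make up the largest parts, summed to 534.3 and 512.5, then 461.4 and 421.4 in control cells, and to 464.4 and 516.2, then 417.4 and 410.1 in RBM6-KO1 cells. The ratio of mitotic to constitutive mRNA, which no scaling between libraries can move, was 1.8 and 1.68 untreated and 1.17 and 1.22 after IR in control cells, and 2.13 and 2.12 and then 1.11 and 1.09 in RBM6-KO1 cells. It was thus highest in the untreated knockout libraries and lowest in the irradiated knockout libraries. With 2 libraries a group an exact permutation test cannot go below p = 0.333, and these sums are given as a description. The other cell cycle genes summed to between 310.7 and 398.7 CPM in all 8 libraries. The irradiated control libraries (334.3 and 336.3) lay inside the range of the untreated control libraries (364.4 and 310.7). In RBM6-KO1 cells the sum went from 380.1 and 398.7 to 329.6 and 336.1, without overlap. There 11 of the 17 genes were lower without overlap, against 29.5% of all genes.

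**Figure D3:**
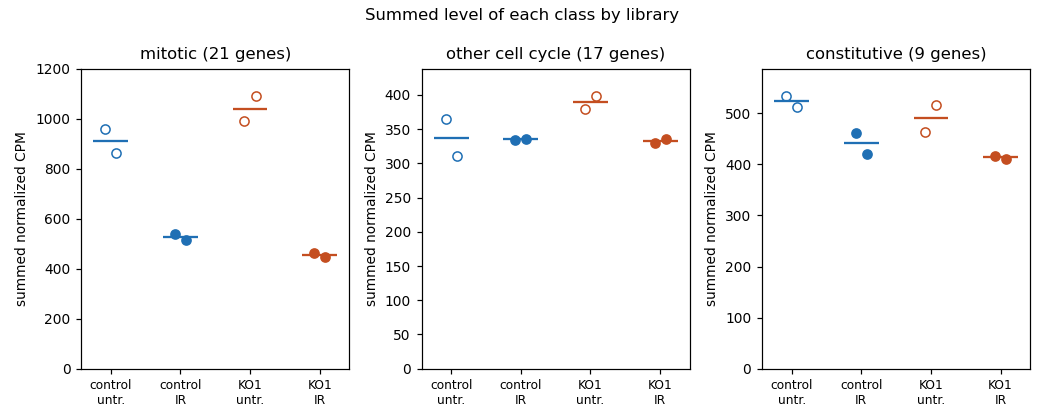
Summed normalized CPM of the genes of each class (linear axes from 0) in each library, for control (blue) and RBM6-KO1 (orange) cells, untreated (open) or after IR (filled). Horizontal lines are means of 2 libraries. The mitotic sum lies at 447.7 to 539.6 CPM in the 4 irradiated libraries and at 863.2 to 1092 in the untreated ones.

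Without IR, few of these genes differed between RBM6-KO1 and control cells. By the rule 1 of the 47 genes, SGO2, was higher in RBM6-KO1 cells (background 1.16% of 15556 genes) and 0 were lower (background 1.97%). None was lower at an unadjusted p under 0.05, and DESeq2 called 1 higher and 0 lower. With an adjusted p alone 3 were higher, against 2.38% of all genes: SGO2 (log2 fold change 1.16 ± 0.23 (SE), adjusted p = 0.00354), CENPF (0.77 ± 0.16, adjusted p = 0.0067) and KNL1 (0.75 ± 0.21, adjusted p = 0.0447). SGO2 dropped below 2-fold without replicate B of the untreated control cells (0.93) or of the untreated RBM6-KO1 cells (0.87), and without replicate A of the untreated control cells 3 genes were called. Both knockout libraries lay above both control libraries for 23 of the 47 genes and below for 5, against 23.8% of all genes that lay above and 23.9% below. The median of the 47 was 0.18 against 0.01 for all genes, with 0.20 for mitotic, 0.24 for other cell cycle and 0.00 for constitutive genes. It was 0.06 without replicate B and 0.28 without replicate A of the untreated control cells. Fold changes between genotypes went with GC content over all genes (a rank correlation of -0.30 over 15444 genes, given as a description since genes share libraries), and with a trend on GC content and transcript length removed the median of the 47 genes was 0.07.

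After IR none of the 47 genes differed between the genotypes by the rule, where 1.17% of 15587 genes did in either direction. DESeq2 also called 0, and 1 gene was lower at an unadjusted p under 0.05, CDC20 (log2 -0.41 ± 0.17 (SE), adjusted p = 0.442). The median was -0.05 against 0.02 for all genes, with 28 genes below 0, and -0.14 for the mitotic class. The first was -0.12 without replicate A of the irradiated RBM6-KO1 cells and -0.02 without replicate B of the irradiated control cells, and the second -0.07 without replicate B of the irradiated RBM6-KO1 cells and -0.25 without replicate B of the irradiated control cells. The irradiated knockout libraries lay below the irradiated control libraries without overlap for 10 of the 47 genes (21.3%, of which 8 were mitotic), near the 20.2% of all genes tested.

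Whether IR acted differently in the 2 genotypes was tested as an interaction over all 8 libraries (the log2 fold change in RBM6-KO1 cells minus that in control cells). At an adjusted p under 0.05 it called 0 of 16549 genes (0%), and so 0 of the 47. DESeq2 called 0 as well. At an unadjusted p under 0.05 it lay below 0 for 2 of the 47, CENPF (-1.09 ± 0.26 (SE), adjusted p = 1) and SGO2 (-1.06 ± 0.39, adjusted p = 1), where 1.14% of all genes did, and above 0 for none. CENPE was at -0.99 ± 0.52 (adjusted p = 1). The interaction was below 0 for 42 of the 47 genes, including 21 of 21 mitotic, 15 of 17 other cell cycle and 6 of 9 constitutive genes. Over all genes 51.3% were below 0. The median of the 47 was -0.27 against -0.01 for all genes. This median ranged from -0.36 without replicate A to -0.17 without replicate B of the untreated control cells. CENPF had the lowest value and NSL1 the highest (0.46 ± 0.26, adjusted p = 1). The greater number of genes called after IR in RBM6-KO1 cells is therefore not shown, gene by gene, to be a difference between genotypes. The untreated libraries enter both this value and the genotype comparison without IR, where the median was 0.18.

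**Figure D4:**
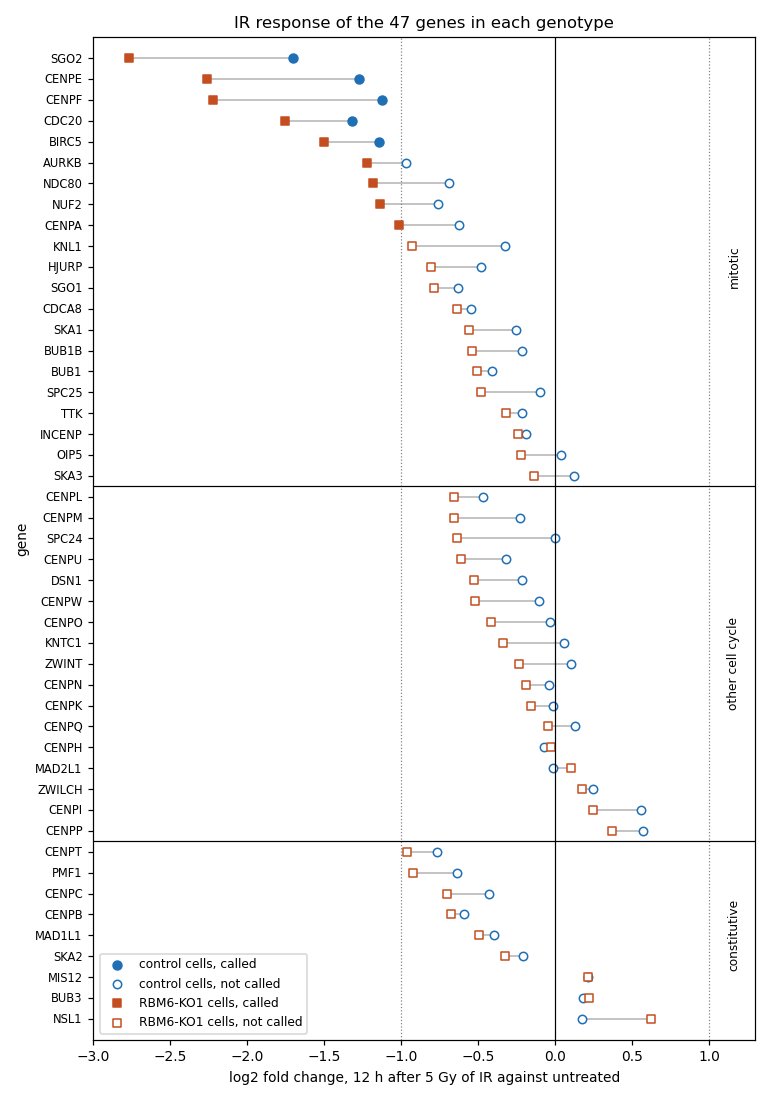
Log2 fold change 12 h after IR for each of the 47 genes in control cells (circles) and RBM6-KO1 cells (squares), by class, with filled symbols for genes called at an adjusted p under 0.05 and at least 2-fold (dotted lines). Grey bars join the 2 values, and the square lies to the left of the circle for 43 of the 47 genes, 21 of them mitotic.

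The same rule was applied to lists of related genes from the rest of the pathway. Over all genes tested, it called 1.91% lower after IR in control cells and 1.97% in RBM6-KO1 cells. With an adjusted p alone these shares were 2.91% and 3.23%. In lists this short a count of 0 is near those shares and does not show where the pattern ends. Of 24 further centromere and spindle genes, 1 was called lower after IR in control cells, the mitotic kinase PLK1 (log2 -1.23 ± 0.17 (SE), adjusted p = 0.00388), and 4 in RBM6-KO1 cells, with PLK1 (-1.43 ± 0.16, adjusted p = 0.00373), PTTG1 (securin, -1.15, adjusted p = 0.00952) and KIF2C (the microtubule depolymerase MCAK, -1.05, adjusted p = 0.0125) the 3 with the smallest p. With an adjusted p alone 5 of the 24 were lower in control cells and 8 in RBM6-KO1 cells. The 5 included PTTG1 (-0.98, adjusted p = 0.0149) and KIF2C (-0.80, adjusted p = 0.0264). The list's medians were -0.20 and -0.42. Of 12 subunits of the anaphase-promoting complex, through which CDC20 acts, 0 were called in both genotypes (medians -0.11 and -0.06). Of 10 cohesin genes 1 was called, SMC3 in RBM6-KO1 cells (-1.54 ± 0.24, adjusted p = 0.0153). SMC3 also passed the adjusted p in control cells, short of 2-fold (-0.93 ± 0.22, adjusted p = 0.0338). Of 15 S phase genes 0 were called in control cells (median -0.01) and 2 in RBM6-KO1 cells, E2F1 (-1.36, adjusted p = 0.012) and GINS2 (-1.04, adjusted p = 0.0245). With an adjusted p alone, E2F1 was also lower in control cells (-0.95, adjusted p = 0.0428) and PCNA was higher (0.86, adjusted p = 0.0216). The interaction was below 0 for 15 of the 15 (median -0.38), where 51.3% of all genes were below 0. It was also below 0 for 6 of the 6 proliferation genes (median -0.335) and 6 of the 6 breast epithelial markers (median -0.318). For the 24 further centromere and spindle genes 18 were below 0, and for the 10 cohesin genes 6. Of the anaphase-promoting complex 5 of 12 were, of the p53 targets 5 of 8, and of the DREAM and MuvB genes 6 of 10. Of 6 proliferation genes 0 and 3 were called lower, and in RBM6-KO1 cells these were MKI67 (-1.50), TOP2A (-1.41) and CCNB2 (-1.12), with adjusted p from 0.0022 to 0.00952. The same 3 passed the adjusted p alone in control cells (-0.78, -0.835 and -0.78, with adjusted p from 0.0247 to 0.0482). Of 8 p53 target genes 7 were called higher in control cells and 6 in RBM6-KO1 cells, against 1.68% and 1.13% of all genes. CDKN1A, the p21 inhibitor of cyclin-dependent kinases, rose 3.48-fold (adjusted p = 0.000536) and 4.05-fold (adjusted p = 0.00051). Of 10 genes of the DREAM and MuvB complexes 0 were called in both genotypes (medians 0.33 and 0.31). Between the genotypes none of these lists had a called gene, untreated or after IR, apart from EPCAM among the epithelial markers. Of all genes, 1.97% were called lower and 1.16% higher untreated, and 1.17% in either direction after IR. Among those markers, 1 was called after IR, CDH1 in control cells (1.18 ± 0.23, adjusted p = 0.0162).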

How the data were processed

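The deposited values were raw read counts per Ensembl gene in 8 libraries (4 groups of 2 biological replicates). Per the labels and the study's methods, the authors made mRNA libraries with a TruSeq kit, sequenced paired ends, and aligned reads to hg38 with STAR. DESeq2 is also named in the submitters' processing notes. The counter, the annotation and the use of strand are not given in the sources used here.

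Genes were tested with edgeR 4.0.16 (R 4.3.3; TMM scaling, filterByExpr, quasi-likelihood test, Benjamini-Hochberg adjustment over all genes tested), each pairwise comparison on its own 4 libraries and the interaction on all 8. A call needed an adjusted p under 0.05 and at least a 2-fold change (for the interaction, the adjusted p alone). Levels are normalized CPM, and per-length levels divide by the canonical GENCODE v44 transcript. Errors are standard errors of log2 fold changes unless SD is stated. A p-value weighs a fold change against the spread between libraries, estimated with information shared over all genes tested. That spread rests on 2 libraries a group.

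The genes, their classes and the other lists were chosen with earlier results of these data known. Any of the 47 genes could be named. Library values were given for the called genes with the smallest p (up to 5 a direction), for the defining genes of each role and for the lowest and highest interaction, and for other lists up to 3 called genes a comparison were named by smallest p. The fits were tested on simulated counts. Alternatives were DESeq2 1.42.0 and its size factors, upper-quartile scaling, no filter, 1 fit of all libraries, the replicate letter as a block, the adjusted p alone, and leaving out each library. Removing a GC and length trend and crossing the letters were chosen after seeing the data.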

Additional observations from a re-analysis of the deposited data

How the results depend on the processing

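No called gene changed direction under an alternative. The counts of genes called after IR stayed within 4 to 6 in control cells and 8 to 10 in RBM6-KO1 cells when each library was left out, and were 5 and 9 with DESeq2 size factors. For untreated RBM6-KO1 against control cells the count of higher genes, 1 in the report, was 3 with an adjusted p alone and ranged from 0 to 3 over the left-out libraries, and the median log2 fold change of 0.177 ranged from 0.059 to 0.284 over them and was 0.073 with a GC and length trend removed. After IR that trend moved the genotype median from -0.053 to -0.129. Leaving out each library gave medians from -0.409 to -0.082 for IR in control cells, from -0.553 to -0.429 for IR in RBM6-KO1 cells, and from -0.358 to -0.172 for the interaction. The cause of these shifts was not tested. Over all genes tested, the background behind the percentages moved further: genes called lower after IR numbered 294 in control cells (148 to 646 over left-out libraries, 479 with no filter, 172 with DESeq2) and 308 in RBM6-KO1 cells (185 to 901 and 630 with no filter), and without a filter the interaction called 1 gene, which is not among the 47. A leave-one-out fit with 1 library in an arm assumes that it varies like the other group.

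Deviations of libraries with the same letter were correlated at 0.35 between the irradiated groups but at 0.0788 between the untreated groups, -0.181 between untreated and irradiated control cells and -0.257 in RBM6-KO1 cells, so the letters were not taken as pairs. With the letter as a replicate block, 5 genes were called lower after IR in control cells and 9 in RBM6-KO1 cells, and the block changed no other count over the 47 genes. Over all genes it moved the calls between irradiated RBM6-KO1 and control cells from 127 lower and 55 higher to 352 and 189, with 0 of the 47 called. With the letters crossed between untreated and irradiated libraries, 5 and 9 were called lower. Depth limits OIP5 and CENPP most, with few counts in each library.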

Other observations

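The 17 other cell cycle genes, most of them inner kinetochore subunits that build up before mitosis, gave 0 calls in any comparison. After IR and between untreated genotypes, 1.13% to 1.97% of all genes were called in a given direction. Between the irradiated genotypes 1.17% were called in either direction. A count of 0 of 17 is near these shares. In untreated cells, for 13 of the 17 both RBM6-KO1 libraries lay above both control libraries, where 23.8% of all genes tested did, and 16 of the 17 log2 fold changes were above 0. The largest with an unadjusted p under 0.05 were CENPO, a subunit of the CENP-O complex (0.49 ± 0.20 (SE), adjusted p = 0.193), SPC24 (0.42 ± 0.17, adjusted p = 0.171) and KNTC1 (0.41 ± 0.19, adjusted p = 0.253). The exons of CENPO overlap those of ADCY3. With a GC and length trend removed, 5 of the 17 were below 0 and the median was 0.16 in place of 0.24. That median was 0.10 without replicate B and 0.34 without replicate A of the untreated control cells. After IR the class median between genotypes was 0.00.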
